A study of Mus musculus with 21 samples.

Results

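The PDGF receptors and Kit are tyrosine kinase receptors of one class, and they are described here with their main ligands in mouse fibroblasts, in cells on the way to chemically induced pluripotency and in stem cell lines. The members are the receptor genes Pdgfra, Pdgfrb and Kit and the ligand genes Pdgfa, Pdgfb and Kitl. They were chosen by gene name, and each was found in all 21 libraries, so they are 6 of the 43436 genes listed in every library. The measure is FPKM, sequenced fragments scaled for transcript length and for the number mapped in a library, which lets levels be compared between genes.

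The intermediate cells, taken once each on day 12, day 20, day 26 and day 28 and with 2 libraries on day 16, were all made from fibroblasts of the strain C57BL/6J-Tg(GOFGFP)11Imeg/RbrcxICR. CiPSC are the chemically induced pluripotent end product, with 1 library of each of 7 lines of the same strain. CeXEN are 2 libraries of extraembryonic endoderm (XEN) cells derived from E3.5 embryos in stage 1 medium with VC6TFAE and 20 ng/ml bFGF. eXEN are 2 libraries of 1 established XEN line, kept in stage 1 medium with VC6TF and 20 ng/ml bFGF (replicate 1) or in conventional XEN medium (replicate 2). CeXEN and eXEN cells are wild-type ICR, so strain and cell type cannot be told apart where they are set against other groups. ESC are 2 libraries of embryonic stem cells from E3.5 embryos, replicate 1 of the reporter strain and replicate 2 of C57BL/6 (B6)N. MEF are 2 libraries of the starting fibroblasts, from E13.5 embryos of the reporter strain. The labels used here do not give the agents applied on each day, and they do not say that replicates are separate cultures. The p-values below therefore measure the spread between libraries, which may be technical. In comparisons of groups that spread is pooled over all groups with more than 1 library. The pool holds differences between CiPSC lines, between the media of eXEN and between the strains of ESC.

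PDGF-A and PDGF-B are secreted growth factors that act as dimers. The alpha receptor, made from Pdgfra, binds dimers of either chain, and the beta receptor, made from Pdgfrb, binds mainly PDGF-B. Kit is the receptor of stem cell factor, the product of Kitl, and is best known in blood progenitors, mast cells, melanocytes and germ cells. In the mouse blastocyst Pdgfra marks the primitive endoderm, the lineage that XEN cells are derived from, while in fibroblasts and the cells around blood vessels both PDGF receptors are typical surface proteins. Ligand binding activates the kinase, and the signal runs through PI3 kinase, the Ras and ERK pathway and phospholipase C gamma.

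Pdgfra and Kit lie on the same stretch of chromosome 5 (mm10), Pdgfra at chr5:75152291-75198204 and Kit at chr5:75574916-75656722, with 376.7 kb between the end of the first and the start of the second. The stretches of DNA that lead up to the start sites of the pair of receptors that are high in XEN cells are shown because they stand next to each other on the chromosome and differ in base composition. They are RefSeq sequences of GRCm38.p6, plus strand, at chr5:75152001-75152250 for Pdgfra and chr5:75574737-75574915 for Kit, and capitals mark each CG pair.
Pdgfra: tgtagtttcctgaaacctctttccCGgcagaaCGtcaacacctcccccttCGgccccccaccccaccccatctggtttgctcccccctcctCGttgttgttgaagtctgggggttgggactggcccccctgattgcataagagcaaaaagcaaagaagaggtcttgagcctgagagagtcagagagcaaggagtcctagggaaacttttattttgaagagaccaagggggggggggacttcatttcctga
Kit: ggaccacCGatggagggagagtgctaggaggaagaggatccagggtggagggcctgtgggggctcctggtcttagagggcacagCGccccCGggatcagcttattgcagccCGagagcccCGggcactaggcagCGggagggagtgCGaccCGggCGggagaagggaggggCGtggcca

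The Pdgfra stretch of 250 bases held 4 CG pairs and was 54.4% G or C, and the Kit stretch of 179 bases held 10 CG pairs and was 69.3% G or C. Over the full windows, from 250 bases before to 50 after a start, Pdgfra held 5 CG pairs, more than 38.0% of 32851 windows, and Kit held 20, more than 73.5% of them. A GATA motif was searched on both strands as the word AGATAA, the word AGATAG, the word TGATAA or the word TGATAG. It was in 29.8% of all windows and in none of those of Pdgfra, Kit, Pdgfa and Kitl, the members whose windows were looked at. Windows on chromosome 18, where Pdgfrb lies, were left out when the windows of the members were taken. The letters TATAAA, searched on both strands, were in 13.6% of all windows and, of these members, in that of Kitl. The letters GGGCGG, a GC box, were in 35.7% of all windows and in those of Kit, Pdgfa and Kitl.

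The libraries held between 11240 genes (eXEN replicate 2) and 13982 genes (day 12) at 1 FPKM or more. The deposited values give no read totals, so the depth behind each library is known only as a relative figure. Of the fibroblast markers 10 of 10 reached 1 FPKM in both MEF libraries. Of the XEN markers 10 of 10 did so in every library of days 12 to 28, CeXEN and eXEN. Of the pluripotency markers 8 of 8 did so in every ESC and CiPSC library. The markers were not limited to these groups, and 5 to 6 of 10 XEN markers reached 1 FPKM in MEF and 5 to 7 in ESC. The pluripotency markers also numbered 8 of 8 on days 26 and 28, with sums of 888 and 591 FPKM against 4763 to 4945 FPKM in ESC, and the XEN markers, some of which encode matrix proteins that fibroblasts make, summed to 1834 and 2896 FPKM in MEF. Fibroblast markers were also present on the way, with 10 of 10 at 1 FPKM or more on days 12, 16 and 26. Their summed level was 2882 to 10528 FPKM in MEF, 1008 on day 12, 283 to 577 on day 16 and 18.2 on day 28. In CiPSC lines C3, G1, G3, N4 and N6, 6 to 7 of 10 fibroblast markers reached 1 FPKM, with sums of 43.6 to 81.8 FPKM, against 2 of 10 and sums of 4.45 to 5.24 FPKM in ESC. The MEF libraries therefore differ several-fold in their own markers. In such bulk RNA, fewer cells of a type and less RNA per cell cannot be told apart. The files of day 12, day 16 replicate 1, day 20 and day 26 carry 446 genes each with a low-data flag that no other file has, which separates 2 sets of files, and no member was flagged in any file. Of the day 16 libraries only replicate 2 is in the same set as MEF, XEN and pluripotent libraries.

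Pdgfra was high in all intermediate and XEN libraries and close to nothing in pluripotent cells. It was at 8.22 and 56.5 FPKM in the 2 MEF libraries. On the way it was at 150 FPKM on day 12, at 182 and 181 FPKM in the day 16 libraries, at 144 FPKM on day 20, at 146 FPKM on day 26 and at 172 FPKM on day 28. The 6 intermediate libraries thus lay in a narrow band, above both MEF libraries, and none of them overlapped any other group except CeXEN. CeXEN libraries held 157 and 187 FPKM. The eXEN line held 88.1 FPKM in the chemical medium and 89.2 FPKM in conventional medium, 1 library of each. CiPSC lines ran from 0.119 to 0.375 FPKM with a median of 0.226, and ESC held 0.177 and 0.295 FPKM. In order of group means, only the steps eXEN to MEF and MEF to ESC exceeded 2 times the pooled SD of the log2 values. The neighbours above and below those steps did not differ beyond that spread. The SD is pooled over all groups with more than 1 library, and the MEF libraries lay further apart than it. The step from eXEN to MEF was 1.96 with both MEF libraries and 0.64 without MEF replicate 1.

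Pdgfrb was high in the fibroblasts and low everywhere else. The gene lies at chr18:61045150-61085061. The MEF libraries held 40.6 and 153 FPKM. The intermediates held 2.56 FPKM on day 12, 1.17 and 2.69 FPKM on day 16, 0.956 FPKM on day 20, 0.932 FPKM on day 26 and 0.410 FPKM on day 28. Every library other than MEF was at 2.69 FPKM or less. CeXEN held 0.136 and 0.491 FPKM, and eXEN 0.362 and 0.0554 FPKM. CiPSC lines lay between 0.846 and 2.41 FPKM with a median of 1.63, and ESC held 1.54 and 1.28 FPKM, so every pluripotent library lay above every XEN library. Only the step from MEF to day 12 exceeded the spread.

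Pdgfrb exceeded Pdgfra in MEF, and Pdgfra exceeded Pdgfrb in every intermediate and XEN library. The ratio of Pdgfra to Pdgfrb was 0.203 and 0.369 in MEF, 58.7 on day 12 and 420 on day 28. It was 1160 and 380 in CeXEN and 244 and 1610 in eXEN. The XEN ratios divide by low Pdgfrb values, so their differences are not firm. In eXEN replicate 2 the deposited bounds of Pdgfrb were 0 to 0.111 FPKM, not told from 0. In the pluripotent libraries, with both receptors near the bottom of the scale, it lay between 0.0936 and 0.231.

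Kit was near 0 in MEF and present in every other group. The MEF libraries held 0.264 and 0.102 FPKM, with deposited bounds of 0 to 0.971 and 0 to 0.698 FPKM, so that neither is told from 0. Kit was at 50.0 FPKM on day 12, at 89.8 and 59.3 FPKM on day 16, at 64.0 FPKM on day 20, at 58.8 FPKM on day 26 and at 79.1 FPKM on day 28. CeXEN held the highest values of the series, 144 and 165 FPKM, above every other library. The eXEN line held 51.5 FPKM in chemical medium and 66.2 FPKM in conventional medium, within the range of the intermediates. CiPSC lines ran from 23.7 to 53.2 FPKM with a median of 34.5, and ESC held 43.2 and 52.5 FPKM. Unlike Pdgfra, Kit was thus shared by XEN and pluripotent cells. Only the steps from CeXEN to day 28 and from CiPSC to MEF exceeded the spread.

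**Figure D1:**
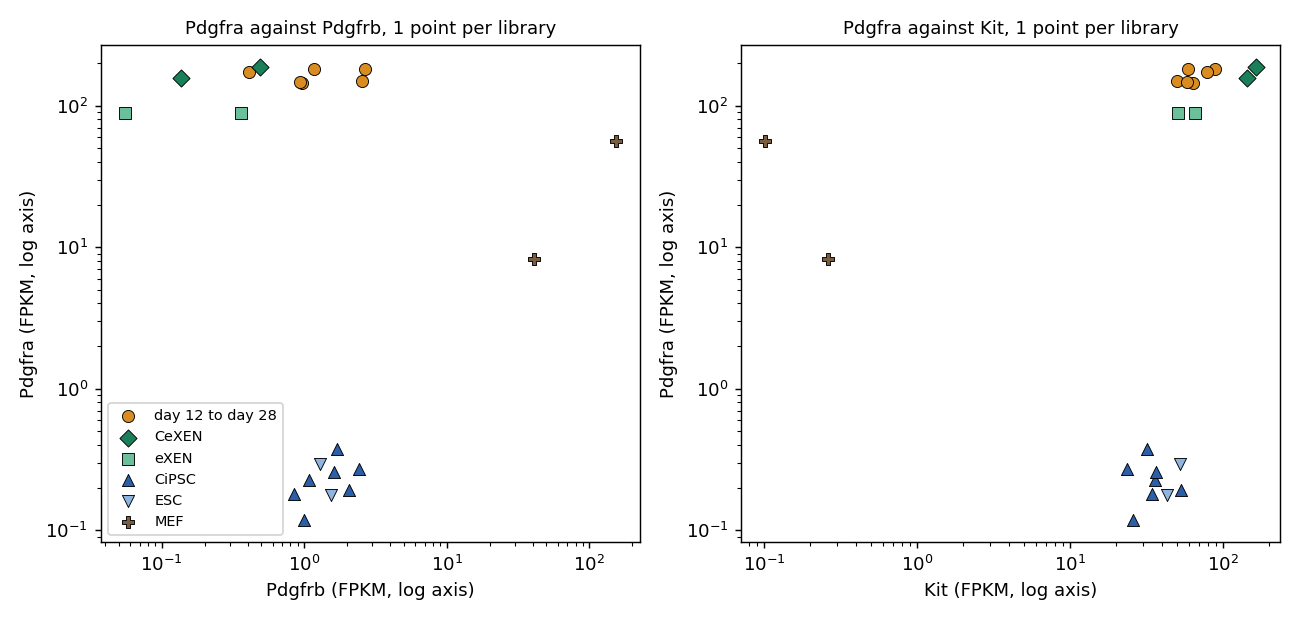
Pdgfra (FPKM, log axis) against Pdgfrb and against Kit (FPKM, log axes), 1 point per library, with symbols for the groups. The libraries fall into 3 clusters: MEF with Pdgfrb at 40.6 and 153 FPKM and Kit under 1 FPKM, intermediates and XEN cells with Pdgfra between 88.1 and 187 FPKM and Kit at 50.0 FPKM or more, and pluripotent cells with Kit at 23.7 to 53.2 FPKM and Pdgfra under 1 FPKM.

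Of the ligands, Pdgfa was present in all libraries at a middling level and was highest in pluripotent cells and in 1 day 16 library. The gene lies at chr5:138976014-138997370. MEF held 15.8 and 15.3 FPKM. The intermediates held 18.5 FPKM on day 12, 14.7 and 67.9 FPKM on day 16, 14.5 FPKM on day 20, 7.93 FPKM on day 26 and 7.35 FPKM on day 28. The day 16 libraries disagree, replicate 2 standing above every other library, so the day 16 mean describes neither of them. CeXEN held 10.2 and 19.1 FPKM, and eXEN 11.3 FPKM in chemical medium and 3.91 FPKM in conventional medium. CiPSC lines lay between 31.6 and 49.9 FPKM with a median of 35.0, and ESC held 28.8 and 32.9 FPKM. No step between neighbouring group means exceeded the spread.

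Pdgfb was low in all groups. The gene lies at chr15:79995900-80014808. It was at 0.894 and 0.448 FPKM in MEF, 0.599 FPKM on day 12, 0.648 and 0.0476 FPKM on day 16, 1.40 FPKM on day 20, 0.0761 FPKM on day 26 and 0.289 FPKM on day 28. It was listed at 0 in CeXEN replicate 1 and in both eXEN libraries, and at 0.101 FPKM in CeXEN replicate 2. CiPSC lines held 0.937 to 3.14 FPKM with a median of 2.08, and ESC 0.829 and 0.786 FPKM. Every CiPSC line lay above both ESC libraries, but the deposited bounds of lines C1, C2 and G1 overlapped those of ESC. They were 0.639 to 1.24 FPKM for C2 and 0.526 to 1.13 FPKM for ESC replicate 1. The deposited bounds were 0 to 0.115 FPKM for day 16 replicate 2, 0 to 0.164 FPKM for day 26, 1.02 to 1.79 FPKM for day 20 and 2.66 to 3.62 FPKM for the highest line, N4. No step between neighbouring means exceeded the spread.

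Kitl peaked at the earliest intermediate. The gene lies at chr10:100015630-100100413. MEF held 2.99 and 2.92 FPKM. It was at 15.6 FPKM on day 12, 7.07 and 8.85 FPKM on day 16, 6.92 FPKM on day 20, 9.27 FPKM on day 26 and 5.42 FPKM on day 28. CeXEN held 2.98 and 2.20 FPKM, and eXEN 5.87 FPKM in chemical medium and 2.0 FPKM in conventional medium. CiPSC lines lay between 0.189 and 0.863 FPKM with a median of 0.369, and ESC held 0.811 and 0.437 FPKM, so every pluripotent library was below every other library. The steps from day 12 to day 26 and from CeXEN to ESC exceeded the spread. In FPKM, Kit stood 3.21 times as high as Kitl on day 12 and 48.4 and 75.2 times in CeXEN. The ratio was 0.0883 and 0.0351 in MEF, where Kit is not told from 0.

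**Figure D2:**
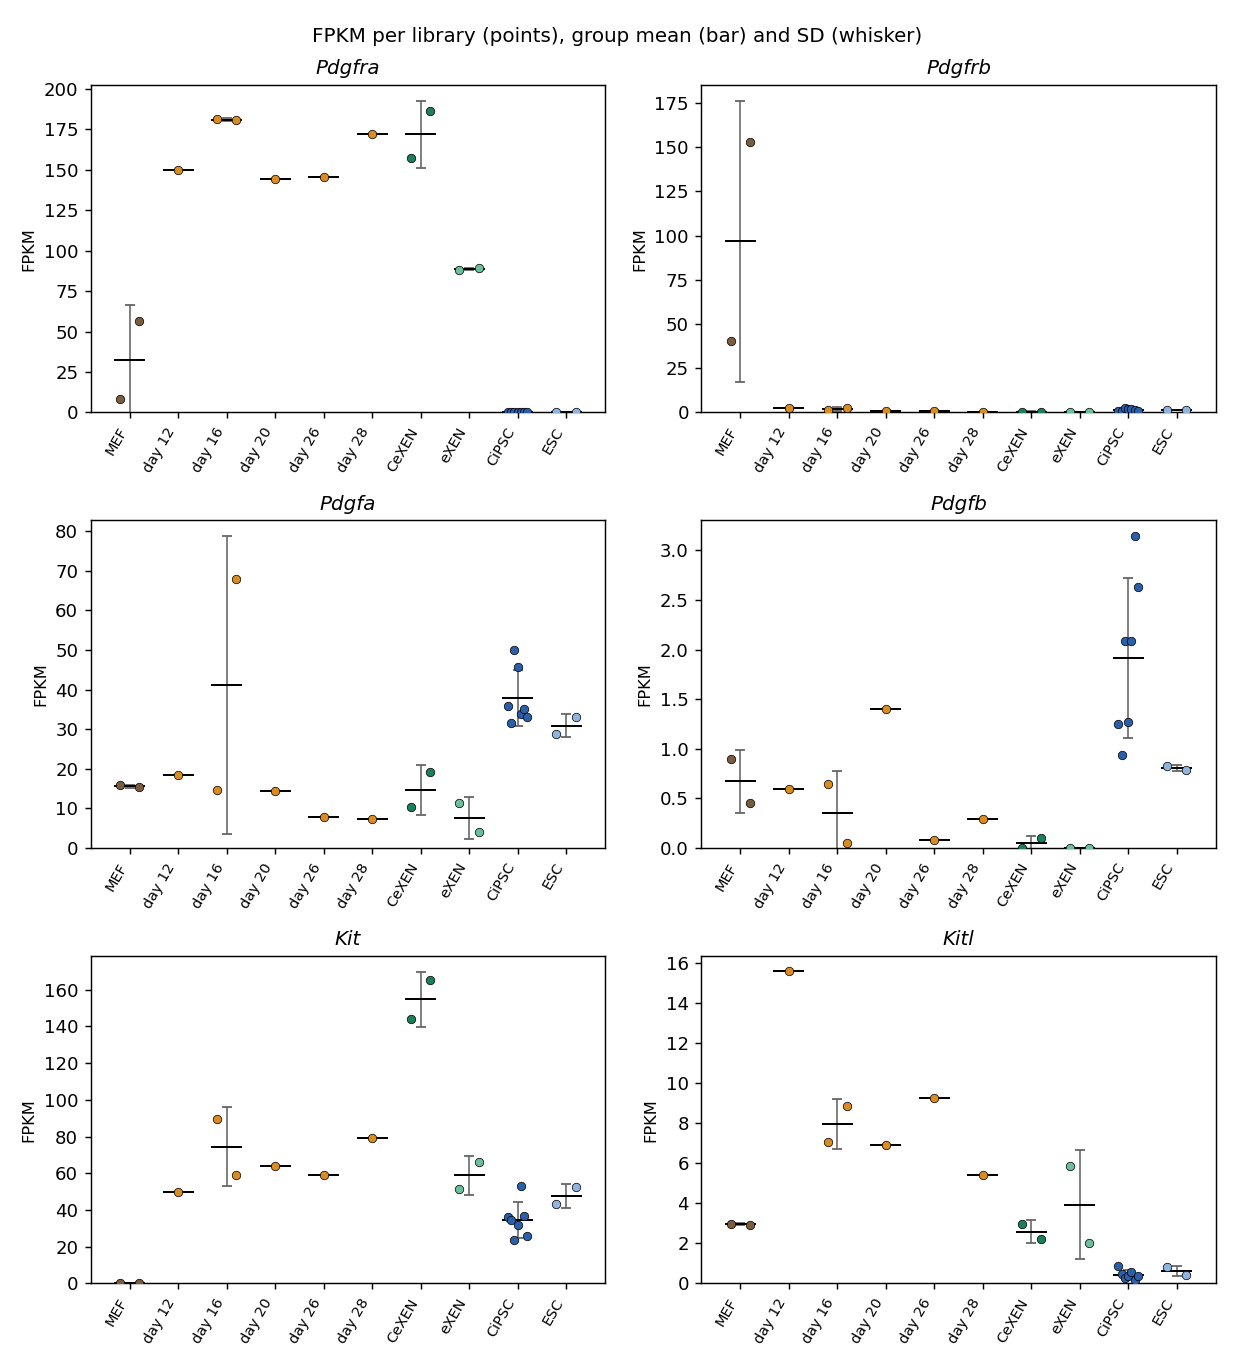
FPKM of the 6 members by library, with 1 panel per gene, points for libraries, a bar for the group mean and a whisker for the SD where a group has 2 or more libraries (whiskers that pass 0 end at the axis). Pdgfra stays between 144 and 182 FPKM from day 12 to day 28, Pdgfrb is high in MEF, and Kit is highest in CeXEN.

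Intermediates against starting cells were tested at day 16, the time with replicates. The test was limma on log2(FPKM + 1), with Benjamini-Hochberg adjustment over 16650 genes, and a gene is called where its adjusted p is under 0.05 and its log2 change is at least 1 in size. Changes on this scale are smaller than those of the FPKM for genes near 0. Of the 6 members 4 were called, 3 higher and 1 lower in day 16 cells than in MEF, where 20.7% of all genes tested were called, 13.3% higher and 7.41% lower. Kit rose by 5.97 ± 0.31 (SE; limma adjusted p = 9.64e-09). Pdgfra rose by 2.98 ± 0.52 (limma adjusted p = 0.00068), while Pdgfrb fell by 4.82 (SE 0.48; limma adjusted p = 5.99e-06) and Kitl rose by 1.17 ± 0.33 (limma adjusted p = 0.016). Pdgfa, at 0.99 ± 0.54, and Pdgfb, at -0.33 ± 0.33, were not called (limma adjusted p = 0.194 and 0.513).

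The size of the Pdgfra change rested on which MEF library was used: it was 1.66 without MEF replicate 1 and 4.30 without MEF replicate 2, and was called both times. The Kitl call is the least firm, as it was lost without MEF replicate 1 (limma adjusted p = 0.0503), without MEF replicate 2 (limma adjusted p = 0.0626) and without day 16 replicate 2 (limma adjusted p = 0.0801). It was also lost under quantile normalization (0.96), under median-of-ratios scaling (0.90, limma adjusted p = 0.0525) and with a pseudocount of 0.1 (limma adjusted p = 0.0795). The median gene rose by 0.215 in this comparison, and relative to it Kitl rose by 0.96. The Pdgfa change was 2.06 without day 16 replicate 1 (limma adjusted p = 0.00817) and -0.08 without day 16 replicate 2 (limma adjusted p = 0.968). Within the set of files without flags, that is, with day 16 replicate 2 alone, the changes were 2.98 for Pdgfra, -4.44 for Pdgfrb, 5.67 for Kit and 1.32 for Kitl, and all 4 were called. The day 16 arm is then 1 library, which the fit takes to vary like the other groups. With only the 4 libraries of these groups in the fit, no gene of the whole table was called.

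**Figure D3:**
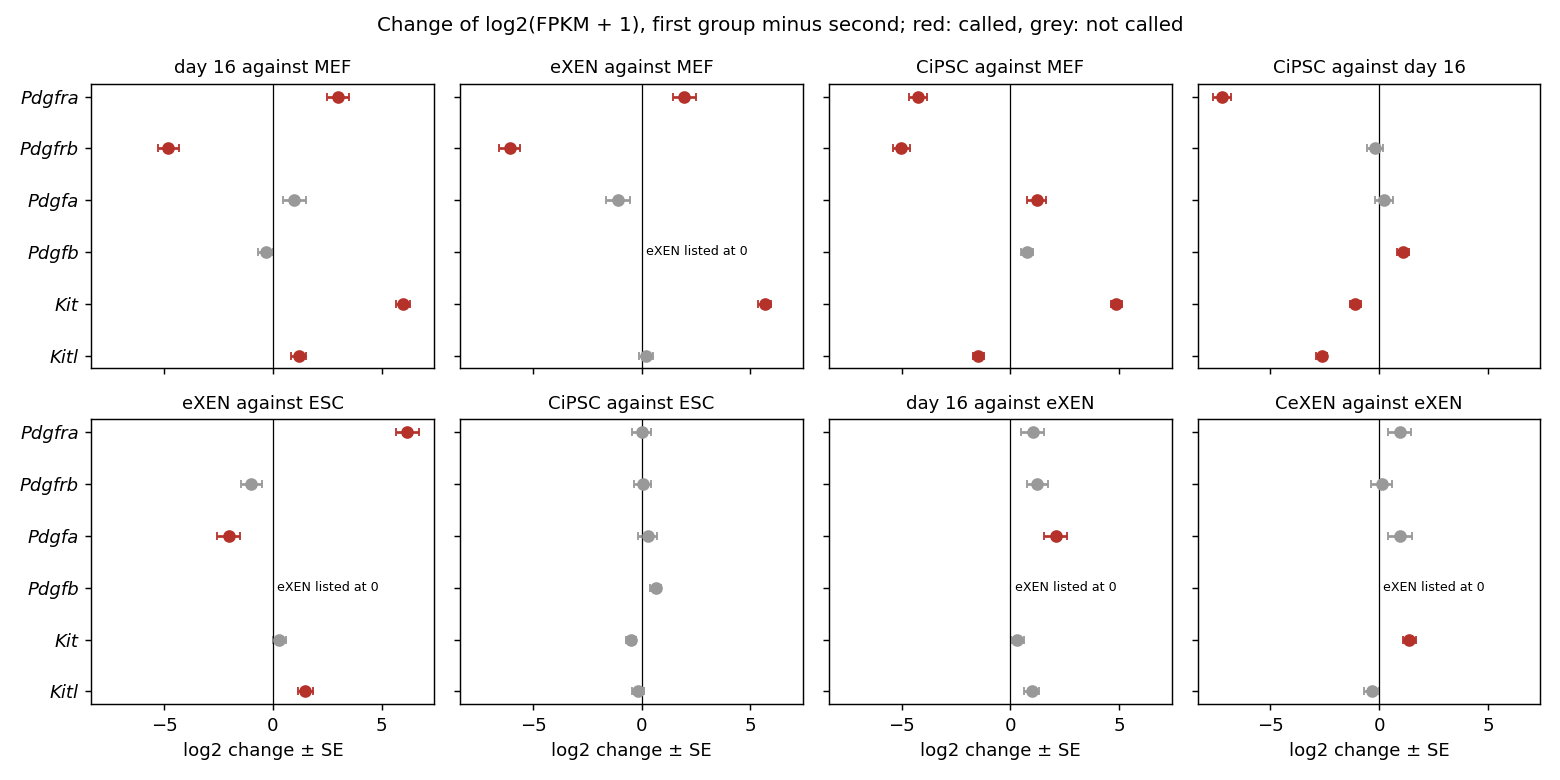
Change of log2(FPKM + 1) with its SE for the 6 members in 8 comparisons of groups, the group named first minus the second, red where called and grey where not. Kit is 5.97 higher in day 16 cells than in MEF, Pdgfra differs by -7.21 in CiPSC against day 16 cells, and no member is called in CiPSC against ESC.

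The end product was set against day 16 cells and against MEF, comparisons that share the CiPSC libraries. Against day 16, 4 of 6 members were called, 1 higher and 3 lower in CiPSC, with 29.9% of all genes called, 13% higher and 17% lower. Pdgfra fell by 7.21 on the log2 scale (SE 0.42; limma adjusted p = 9.18e-09), Kitl fell by 2.64 (SE 0.26; limma adjusted p = 2.22e-06) and Kit fell by 1.1 (SE 0.25; limma adjusted p = 0.00215). Pdgfb rose by 1.1 ± 0.27 (limma adjusted p = 0.00369). The Kit change was -0.80 without day 16 replicate 1 (limma adjusted p = 0.071) and the Pdgfb change was 0.78 without day 16 replicate 2 (limma adjusted p = 0.0843), and neither is called there. Pdgfrb at -0.19 ± 0.39 and Pdgfa at 0.22 ± 0.43 were not called (limma adjusted p = 0.708 and 0.695). Pdgfa was called without day 16 replicate 2 (1.29, limma adjusted p = 0.0221) and was at -0.84 without day 16 replicate 1 (limma adjusted p = 0.131).

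Against MEF, 5 of 6 members were called, 2 higher and 3 lower in CiPSC, with 37% of all genes called, 21.7% higher and 15.3% lower. Kit was 4.87 ± 0.25 higher (limma adjusted p = 2.37e-09). Pdgfrb fell by 5.02 (SE 0.39; limma adjusted p = 1.17e-07), Pdgfra fell by 4.23 (SE 0.42; limma adjusted p = 1.21e-06) and Kitl fell by 1.47 (SE 0.26; limma adjusted p = 0.000301). The changes were -5.55 for Pdgfra and -5.96 for Pdgfrb without MEF replicate 1, and -2.91 for Pdgfra and -4.07 for Pdgfrb without MEF replicate 2, and all were called. Pdgfa rose by 1.21 ± 0.43 (limma adjusted p = 0.0273), a call lost without MEF replicate 1 (limma adjusted p = 0.111) or MEF replicate 2 (limma adjusted p = 0.131), under median-of-ratios scaling (0.92, limma adjusted p = 0.057) and with no filter on low values (limma adjusted p = 0.0543). Pdgfb, at 0.77 ± 0.27, passed the p but not the size (limma adjusted p = 0.0246). CiPSC therefore differed from the cells they came from by the near absence of both PDGF receptors and the presence of Kit.

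Against ESC, the pluripotent control, none of the 6 members was called, where 0.0601% of genes tested were, 10 in all. The log2 differences, CiPSC minus ESC, were -0.01 ± 0.42 for Pdgfra, 0.04 ± 0.39 for Pdgfrb, 0.27 ± 0.43 for Pdgfa, 0.64 ± 0.27 for Pdgfb, -0.49 ± 0.25 for Kit and -0.18 ± 0.26 for Kitl (SE; limma adjusted p of 0.558 or more). The ESC libraries are 2 and of different strains, and the absence of a call does not show that the levels are equal.

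XEN cells were set against ESC and MEF. In eXEN against ESC 3 of 6 members were called, 2 higher and 1 lower, with 28.1% of all genes called, 9.78% higher and 18.4% lower. Pdgfra was 6.18 ± 0.52 higher in eXEN (limma adjusted p = 8.08e-07), and Kitl was 1.49 ± 0.33 higher (limma adjusted p = 0.00282), a change of 0.90 and no call without eXEN replicate 1. Pdgfa was lower by -2.03 ± 0.54 (limma adjusted p = 0.00882), and lost its call without eXEN replicate 2 (-1.37, limma adjusted p = 0.118) or ESC replicate 2 (-1.94, limma adjusted p = 0.0541). Kit differed by 0.29 ± 0.31 (limma adjusted p = 0.498) and Pdgfrb by -1.01 ± 0.48 (limma adjusted p = 0.117). Pdgfb is listed at 0 in both eXEN libraries, so no fold is given for it.

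In eXEN against MEF, which uses the same MEF libraries as the day 16 comparison, 3 of 6 members were called, with 22.3% of all genes called. Kit was 5.65 ± 0.31 higher in eXEN (limma adjusted p = 1.05e-08) and Pdgfrb was lower by -6.06 ± 0.48 (limma adjusted p = 3.52e-07). Pdgfra was 1.96 ± 0.52 higher (limma adjusted p = 0.0103), with 0.64 and no call without MEF replicate 1 and 3.28 without MEF replicate 2. Pdgfa at -1.09 ± 0.54 and Kitl at 0.20 ± 0.33 were not called (limma adjusted p = 0.156 and 0.753).

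Day 16 cells were then set against eXEN, to see where the cells on the way differ from an embryo-derived XEN line. Of the 6 members 1 was called, higher, with 17.1% of all genes called, 14% higher and 3.17% lower. Pdgfa was 2.08 ± 0.54 higher in day 16 cells (limma adjusted p = 0.0125). That call was lost without day 16 replicate 2 (1.01, limma adjusted p = 0.155) or eXEN replicate 2 (1.41, limma adjusted p = 0.152), and the change was 3.15 without day 16 replicate 1. Pdgfra at 1.02 ± 0.52, Pdgfrb at 1.24 ± 0.48 and Kit at 0.32 ± 0.31 were not called (limma adjusted p = 0.179, 0.0801 and 0.521). Kitl, at 0.97 ± 0.33, passed the p but fell short of the size (limma adjusted p = 0.0468).

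CeXEN differed from eXEN in Kit. Of the 6 members 1 was called, higher, with 6.47% of all genes called, 4.01% higher and 2.46% lower. Kit was 1.39 ± 0.31 higher in CeXEN (limma adjusted p = 0.0129), and both CeXEN libraries lay above both eXEN libraries. The call was lost without CeXEN replicate 2 (1.29, limma adjusted p = 0.0971), without eXEN replicate 1 (1.21, limma adjusted p = 0.0664) and under quantile normalization (1.04, limma adjusted p = 0.0677). The other members with a value in both groups lay between -0.35 and 0.95, and their limma adjusted p was 0.330 or more.

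Within the time course a linear trend on day over the 6 libraries called none of the 6 members and 0% of all genes tested, with 3349 genes at an unadjusted p under 0.05 and a smallest limma adjusted p of 0.175. Over 16 days Pdgfrb changed by -1.19 ± 0.33 (limma adjusted p = 0.188), Pdgfa by -1.88 ± 0.91 (limma adjusted p = 0.307), Kitl by -0.78 ± 0.43 (limma adjusted p = 0.351), Pdgfra by -0.05 ± 0.19 (limma adjusted p = 0.918) and Kit by 0.25 ± 0.33 (limma adjusted p = 0.703). Over the same days the summed fibroblast markers were at 1008 FPKM on day 12 and 283 to 577 FPKM on day 16. They were at 104 FPKM on day 20, 177 FPKM on day 26 and 18.2 FPKM on day 28. The summed mural markers, those of cells around blood vessels, were at 80.6 FPKM on day 12 and 19.9 to 28.5 FPKM on day 16. They were at 9.72, 11.9 and 3.85 FPKM on days 20, 26 and 28. The part of both marker sets in the values of Pdgfrb was not tested.

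The other genes of the PDGF family were mostly lower outside MEF. The list holds the further ligands Pdgfc and Pdgfd, the receptor-like gene Pdgfrl, the ligand-cleaving proteases Plat and Furin, and the co-receptors Nrp1 and Lrp1. In day 16 cells against MEF 0 of these 7 rose and 6 fell, with a median of -2.60 against 0.215 over all genes tested, of which 20.7% were called. In eXEN against MEF 0 rose and 6 fell (median -3.26 against 0.00 over all genes), beside 22.3% of all genes called. In CiPSC against MEF 0 rose and 7 fell (median -2.75 against 0.25), beside 37% of all genes called. Called lower against MEF were 7.41% of all genes tested in day 16 cells, 15.3% in CiPSC and 2246 of 16650 in eXEN.

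Pdgfc, whose product binds the alpha receptor, held 1.93 and 3.29 FPKM in day 16 cells, against 18.4 and 28.7 FPKM in MEF, a log2 change of -2.76 ± 0.55 (limma adjusted p = 0.00172). Nrp1 changed by -3.75 ± 0.34 (limma adjusted p = 2.85e-06), Lrp1 by -2.90 ± 0.38 (limma adjusted p = 7.00e-05) and Furin by -2.60 ± 0.38 (limma adjusted p = 0.000162). Summed fibroblast markers were also lower in day 16 cells, at 283 to 577 FPKM, than in MEF, at 2882 to 10528 FPKM, and macrophage markers were at 3.18 to 7.43 FPKM in day 16 cells and 55.5 to 123 FPKM in MEF. Their part in these changes was not tested.

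Plat, which encodes tissue plasminogen activator, held 22.5 and 116 FPKM in eXEN, against 0.322 and 0.250 FPKM in ESC, 5.35 ± 0.67 higher (limma adjusted p = 3.38e-05). In eXEN against ESC the family had 2 genes higher and 1 lower of 7, beside 28.1% of all genes called. The family median was 0.16 against -0.26 over all genes.

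Of the related receptors of classes III and V and their ligands, 12 of 13 genes were tested. In day 16 cells against MEF 0 rose and 3 fell (median -0.66 against 0.215 over all genes), beside 20.7% of all genes called. In eXEN against MEF 0 rose and 6 fell (median -1.09), beside 22.3% of all genes. Called lower against MEF were 7.41% of all genes tested in day 16 cells and 2246 of 16650 in eXEN. Csf1, the ligand of the macrophage receptor Csf1r, held 7.29 and 17.2 FPKM in day 16 cells, against 479 and 73.4 FPKM in MEF. Its change was -3.94 ± 0.88 (limma adjusted p = 0.00392), with no call and -2.60 without MEF replicate 1 (limma adjusted p = 0.0552) and no call and -3.37 without day 16 replicate 1 (limma adjusted p = 0.0517). Vegfc, a ligand of lymphatic vessels, changed by -2.08 ± 0.36 (limma adjusted p = 0.000658).

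Flt1, a VEGF receptor, was at 135 FPKM or more in the CeXEN libraries and in the eXEN library in chemical medium. The intermediates held 39.0 FPKM on day 12, 127 and 74.7 FPKM on day 16 and between 102 and 134 FPKM on days 20 to 28. CeXEN held 165 and 209 FPKM. The eXEN line held 135 FPKM in chemical medium and 6.75 FPKM in conventional medium, 1 library of each medium, where Pdgfra was at 88.1 and 89.2 FPKM and Kit at 51.5 and 66.2 FPKM. ESC held 0.679 and 0.304 FPKM, and MEF 38.9 and 22.2 FPKM. In eXEN against ESC Flt1 was 4.46 ± 0.93 higher (limma adjusted p = 0.00197), and 2.39 higher without eXEN replicate 1.

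Of 37 proteins that carry the signal inward 2 rose and 3 fell in day 16 cells against MEF, with a median of -0.10 against 0.215 over all genes. These 5 of 37 are a smaller share than the 20.7% of all genes called. In eXEN against MEF 4 rose and 5 fell, a share near the 22.3% of all genes. Pik3cb, a catalytic subunit of PI3 kinase, was 2.42 ± 0.36 higher on day 16 (limma adjusted p = 0.000183), at 16.5 and 22.9 FPKM in day 16 cells and 5.27 and 1.33 FPKM in MEF. Gab1, a docking protein, was 1.36 ± 0.41 higher (limma adjusted p = 0.0226), but 0.75 without MEF replicate 1 (limma adjusted p = 0.228) and 0.58 without day 16 replicate 1 (limma adjusted p = 0.308). In eXEN against ESC 5 rose and 7 fell, beside 28.1% of all genes called. There Gab1 was lower by -3.25 ± 0.41 (limma adjusted p = 3.25e-05). Akt1, the kinase downstream of PI3 kinase, was 2.17 ± 0.23 higher (limma adjusted p = 7.12e-06).

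Of the negative regulators, 18 of 19 were tested, and 1 rose and 5 fell in day 16 cells against MEF (median -0.43), beside 20.7% of all genes called. The gene that rose was Socs3, an inhibitor of cytokine and receptor signals, at 214 and 88.0 FPKM in day 16 cells and 10.1 and 25.5 FPKM in MEF (3.01 ± 0.58, limma adjusted p = 0.00154). Grb10, an imprinted adaptor that damps insulin and growth factor receptors, was low in the eXEN line. CiPSC were low in it too, with a mean of 7.24 FPKM against 5.25 FPKM in eXEN. Grb10 held 138 and 182 FPKM on day 16 and 150 and 221 FPKM in CeXEN, against 8.26 and 2.24 FPKM in eXEN, and MEF held 143 and 271 FPKM. Its change was 4.87 ± 0.56 in day 16 cells against eXEN (limma adjusted p = 3.10e-05) and 5.06 ± 0.56 in CeXEN against eXEN (limma adjusted p = 8.30e-05), comparisons that share the eXEN libraries.

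Of 18 feedback and target genes of the ERK pathway 0 rose and 3 fell in day 16 cells against MEF (median -1.0 against 0.215). Of all genes tested 20.7% were called there, 13.3% higher and 7.41% lower. In eXEN against MEF 0 rose and 8 fell (median -1.78 against 0.00), beside 22.3% of all genes, with 2246 of 16650 lower. In day 16 cells against eXEN 8 rose and 1 fell (median 1.08 against 0.23), beside 17.1% of all genes, 14% higher and 3.17% lower. Of the 10 fibroblast markers 9 were also higher in day 16 cells than in eXEN (median 4.66), with sums of 283 to 577 FPKM in day 16 cells and 2.04 to 3.41 FPKM in eXEN, and their part in these changes was not tested. Spry1, an inhibitor induced by receptor signals, held 14.7 and 7.20 FPKM on day 16, against 1.21 and 0.102 FPKM in eXEN, 2.86 ± 0.36 higher (limma adjusted p = 6.35e-05), and 7.43 and 7.48 FPKM in CeXEN. In CeXEN against eXEN Spry1 was the 1 gene of the 18 that rose, by 2.44 ± 0.36 (limma adjusted p = 0.000808), and 0 fell. Of all genes tested 6.47% were called there. Fos was the gene that fell in day 16 cells against eXEN, by -3.15 ± 0.71 (limma adjusted p = 0.00534).

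Of the transcription factors known in mouse to act on Kit or Pdgfra, 15 of 16 were found and 12 tested. In day 16 cells against MEF 2 rose and 4 fell (median 0.04 against 0.215), beside 20.7% of all genes called. Those that rose are 2 endoderm factors that are also among the XEN markers, Gata4 (8.42 ± 0.34, limma adjusted p = 7.61e-10) and Gata6 (4.01 ± 0.47, limma adjusted p = 2.53e-05). Prrx1, a mesenchymal factor, changed by -2.21 ± 0.41 (limma adjusted p = 0.00102; 0.108 with a pseudocount of 0.1) and Zeb2, a repressor of epithelial genes, by -1.91 ± 0.33 (limma adjusted p = 0.000575). Gata6 held 81.5 and 58.6 FPKM in day 16 cells, against 2.58 and 4.32 FPKM in MEF.

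Cell types in which Kit is best known were looked for among the Kit-positive libraries by their other markers. Of 8 mast cell and blood progenitor markers 2 reached 1 FPKM in each day 16 library, with a sum of 13.0 to 14.0 FPKM, of which Gata2 gave 6.95 and 10.3 FPKM and Cd34 gave 5.91 and 2.30 FPKM. On day 12 the sum was 31.1 FPKM with 3 at 1 FPKM or more, among them Cd34 at 14.1 FPKM and the mast cell protease gene Cma1 at 11.4 FPKM, and on day 26 it was 20.4 FPKM. In MEF it was 3.38 to 5.12 FPKM. In CeXEN, where Kit was highest, the sum was 2.34 to 7.99 FPKM with 1 of 8 at 1 FPKM or more. The 7 melanocyte markers summed to 3.48 to 4.07 FPKM on day 16 and 3.07 to 4.20 FPKM in CeXEN, against 2.65 to 5.82 FPKM in MEF. The 7 germ cell markers summed to at most 7.91 FPKM in any intermediate or XEN library, against 167 to 200 FPKM in ESC, and were at 67.3 to 166 FPKM in CiPSC. The part of these cell types in the levels of Kit was not tested.

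Endothelial markers, which can go with Kit and Flt1, summed to 64.9 FPKM with 8 of 8 at 1 FPKM or more on day 12, 20.8 to 35.9 FPKM with 4 of 8 on day 16, 31.0 to 52.8 FPKM with 3 of 8 in CeXEN and 1.14 to 3.95 FPKM in MEF. In eXEN they summed to 6.69 FPKM in replicate 1, where Flt1 was at 135 FPKM, and to 27.8 FPKM in replicate 2, where Flt1 was at 6.75 FPKM. In ESC they summed to 44.0 and 58.5 FPKM, with Flt1 under 1 FPKM. These sums rest on few of the 8 markers. At 1 FPKM or more were 2 in eXEN replicate 1, 1 in eXEN replicate 2, 3 in ESC replicate 1 and 2 in ESC replicate 2. Their part in the levels of Kit and Flt1 was not tested.

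Pdgfra and Kit were compared with the genes around them on chromosome 5. From Gsx2, which ends 74.4 kb before Pdgfra, through Pdgfra and Kit, to Kdr, a VEGF receptor gene whose annotated range begins 276.1 kb beyond Kit, 3 of the 11 genes from Pdgfra to Kdr reached 1 FPKM in any library: Pdgfra, Kit and Kdr. Gsx2, a homeobox gene known for patterning the forebrain, held 42.2 FPKM on day 12, 54.5 and 34.8 FPKM on day 16, 51.9 FPKM on day 20, 23.8 FPKM on day 26 and 35.3 FPKM on day 28. CeXEN held 1.28 and 2.27 FPKM, and Gsx2 is listed at 0 in both eXEN libraries, while Pdgfra and Kit were high in both XEN groups. MEF held 0.0843 and 0 FPKM, and no pluripotent library passed 0.382 FPKM. In day 16 cells against MEF Gsx2 was 5.42 ± 0.25 higher (limma adjusted p = 2.21e-09), and in CiPSC against day 16 it fell by 5.26 (SE 0.20; limma adjusted p = 1.19e-10).

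Kdr held 3.64 and 1.18 FPKM on day 16 and at most 4.04 FPKM in any library. MEF replicate 1 held 3.13 FPKM and replicate 2 held 0.296 FPKM. In CiPSC against day 16 it fell by 1.56 (SE 0.33; limma adjusted p = 0.00142), with no call and -1.01 without day 16 replicate 1 (limma adjusted p = 0.0651).

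**Figure D4:**
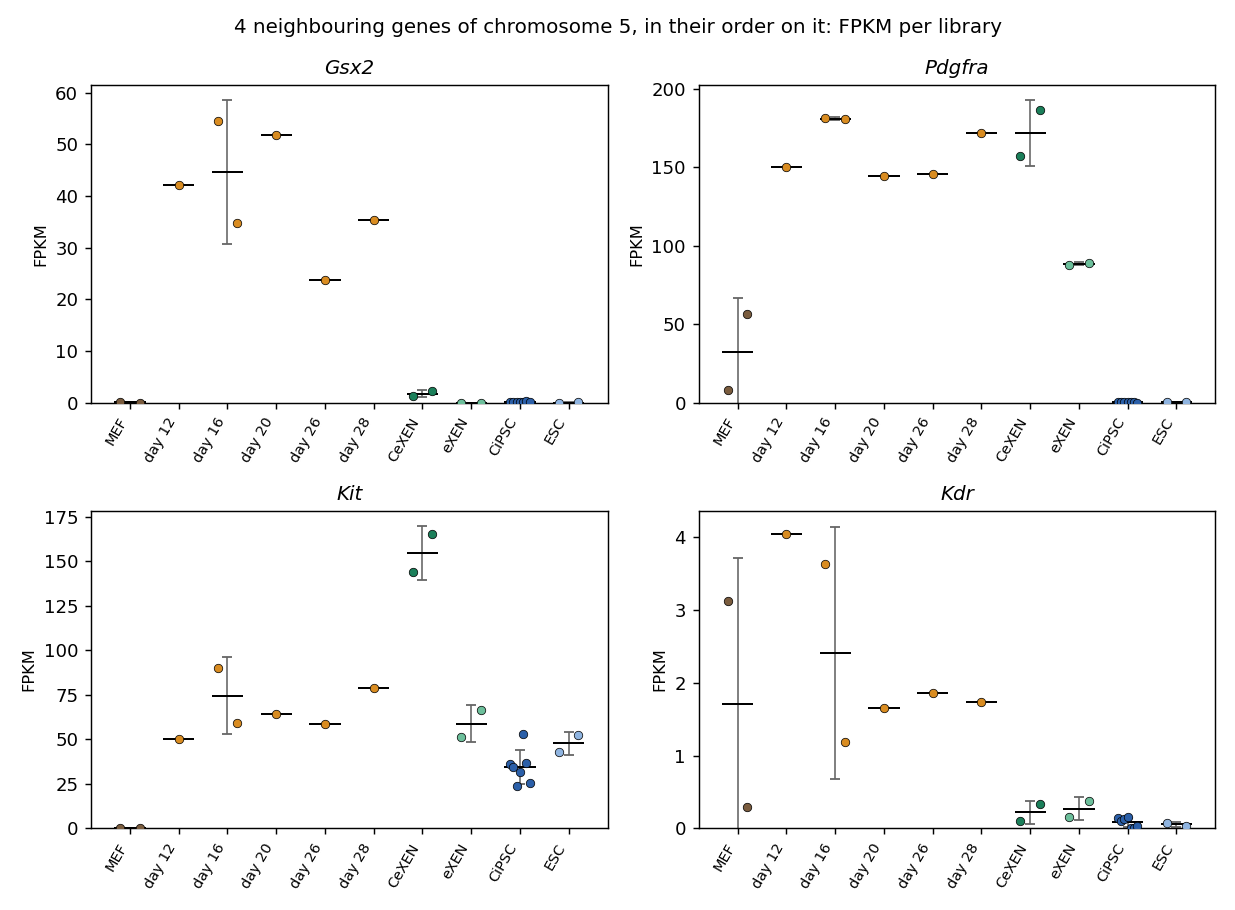
FPKM per library of Gsx2, Pdgfra, Kit and Kdr, 4 genes in their order on chromosome 5, with group means (bars) and SD (whiskers, ending at the axis where they pass 0). Gsx2 is at 23.8 to 54.5 FPKM from day 12 to day 28 and at 2.27 FPKM or less in all other libraries, while Pdgfra and Kit are high in XEN cells as well.

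The genes most like each member were taken by Pearson correlation over the 10 group means of log2(FPKM + 1), among 10855 genes, a description in which groups share processing and several rest on 1 library. For Pdgfra they were Smarca2 (0.99), Ank (0.99) and Creb3l2 (0.98). For Pdgfrb they were Fbn2 (0.99), Fgd3 (0.99) and Trim47 (0.99), and for Kit they included Klf5 (0.97) and Dusp9 (0.97). Those of Kitl were Atp6v0e (0.99), Serpine2 (0.98) and Aup1 (0.98), and those of Pdgfa were Mad1l1 (0.94), Hdac2 (0.93) and Cbs (0.92). Among the members the largest coefficients were -0.96 between Pdgfrb and Kit, with MEF apart from all other groups, and 0.85 between Pdgfra and Kitl.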

How the data were processed

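The data are RNA-seq of 21 mouse libraries, prepared, per the labels' protocols, from RNeasy Plus Mini extracts with the NEBNext Ultra kit. The authors deposited FPKM values, 1 file per library, and per the submitters' processing notes they used TopHat, Cufflinks and the genome mm10, with versions and settings not given in the sources used here. The files hold no read counts, and the deposited lower and upper bounds of each FPKM, which cover quantification within 1 library and not the spread between libraries, give the precision of low values. The total of deposited FPKM ran from 543198 to 864945 per library.

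Genes at 1 FPKM or more in at least 2 libraries (16650) were tested on log2(FPKM + 1) in R 4.3.3 by limma 3.58.1, using a prior variance that follows intensity, 1 coefficient per group over all libraries and Benjamini-Hochberg adjustment. The trend on day used 6 libraries. The fits were tested on simulated data. All 6 members passed the filter. The members and gene lists were chosen with earlier results of these data known. Genes that are no member were named by a rule: up to 4 called genes of each list by size of change, the 3 genes most correlated with a member (1 of them is not reported here), and neighbours on chromosome 5. Gata2, Cd34 and Cma1 were named after their values were seen. Alternatives were another pseudocount, filters, scalings, a fit of the groups compared alone, a replicate block and leaving out each library.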

Additional observations from a re-analysis of the deposited data

How the results depend on the processing

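Of 21 member results called, 8 were called under every alternative, and all 288 alternatives of the called results kept their direction. The fit of only the groups compared has few residual degrees of freedom. It called 0 genes and 0 members in day 16 against MEF, 890 genes and 1 member in eXEN against MEF, 533 genes and 0 members in day 16 against eXEN, 0 genes and 0 members in CeXEN against eXEN, and 26 genes in CiPSC against ESC. CiPSC against ESC had 5 genes called with a pseudocount of 0.1, 5 with a filter of 5 FPKM, and 9 to 51 leaving out 1 library each, the highest without ESC replicate 1. CeXEN against eXEN had 550 to 1847 genes and 0 to 1 members called leaving out 1 library each, and 0 members under quantile normalization. A pseudocount of 0.1 called 5 members in eXEN against ESC and 2 in day 16 against eXEN, where leaving out 1 library each gave 0 to 2.

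The results that changed sign were not called with all libraries in the fit, but Pdgfa was called without day 16 replicate 1 in day 16 against MEF (2.06) and without day 16 replicate 2 in CiPSC against day 16 (1.29). Leaving out 1 library each gave log2 changes from -0.08 to 2.06 for Pdgfa in day 16 against MEF, -0.84 to 1.29 for Pdgfa and -0.58 to 0.19 for Pdgfrb in CiPSC against day 16, -0.07 to 0.06 for Pdgfra and -0.04 to 0.12 for Pdgfrb in CiPSC against ESC, and -0.40 to 0.80 for Kitl in eXEN against MEF. In CeXEN against eXEN they were -0.08 to 0.31 for Pdgfrb, 0.00 to 0.14 for Pdgfb, which is listed at 0 in eXEN, and -0.94 to 0.25 for Kitl, and in the trend -0.22 to 0.05 for Pdgfra and -0.06 to 0.46 for Kit. Under quantile normalization Pdgfra was at 0.03 in CiPSC against ESC and 0.04 in the trend. The cause was not tested.

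Groups share replicate numbers that nothing in the labels ties together, and with 2 pairs each the correlations of their deviations were -0.099, -0.054, 0.051, -0.116 and -0.091. With the replicate block, 3472 genes and 4 members were called in day 16 against MEF, 4678 and 3 in eXEN against ESC, 3740 and 3 in eXEN against MEF, 2838 and 1 in day 16 against eXEN, and 1084 and 1 in CeXEN against eXEN. With crossed numbers in the replicate block, an alternative chosen after seeing the data, day 16 against eXEN had 2937 genes and 2 members called. The deposited bounds of low values are wide relative to the values, as for Pdgfb in day 16 replicate 2 (0 to 0.115 FPKM), and the single libraries of days 12, 20, 26 and 28 have no replicate.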
